A study of Mus musculus with 6 samples.

Results

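Primordial germ cells are the founders of eggs and sperm, and 9 genes that mark or make them were followed in embryos that lack TIP55, one of the proteins made by alternative splicing of *Kat5*, a gene for a histone acetyltransferase. The genes are *Dppa3*, *Nanos3*, *Prdm1*, *Prdm14*, *Dnd1*, *Ifitm3*, *Tfap2c*, *Dazl* and *Ddx4*. They were taken by symbol, and all 9 are among the 20280 genes of the deposited table. RNA-seq was performed on FVB/N mouse embryos at E8.5, with 3 libraries of *Tip55*+/+ (wild type) and 3 of *Tip55*Δ/Δ (mutant) embryos. The methods do not state which tissues around the embryo were removed. Both genotypes came from crosses between heterozygotes. The mutant allele, present in every cell of the embryo, joins exons of *Kat5* so that the intronic sequence kept in the *Tip55* transcript is lost, while the other isoforms can still be made. Neither the labels nor the methods say whether a library holds 1 embryo or a pool.

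In the mouse, germ cells are set aside from the epiblast by BMP and WNT signals at the base of the allantois. The transcription factors PRDM1 (BLIMP1), PRDM14 and TFAP2C then shut down the somatic programme and restore pluripotency genes. NANOS3 and DND1 are RNA-binding proteins that keep the young cells alive, DPPA3 (STELLA) guards DNA methylation at chosen loci, and IFITM3 (FRAGILIS) is a membrane protein known for blocking viruses. DAZL and DDX4 (VASA), an RNA-binding protein and an RNA helicase, belong to the later germ cell programme that starts as the cells enter the gonad. At E8.5 the germ cells are few and lie in the hindgut region. *Prdm1*, *Tfap2c* and *Ifitm3* are also used by somatic and extra-embryonic tissues.

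Single libraries have no values of their own in the deposited table, which sets one genotype against the other gene by gene. The mean normalized count of a gene in each genotype was solved from its 2 deposited ratios, and the spread between the 3 libraries of a genotype could not be measured. Each gene is therefore described in a pair of ways. The first is the posterior probability of differential expression (PPDE) that the authors obtained with EBSeq, which takes the spread between libraries into account and which they read at a threshold of 0.95. The second is a 95% exact binomial (Clopper-Pearson) interval of the ratio of means, mutant over wild type, which covers counting error only. Reads summed over the libraries were estimated from size factors, the depth of a library relative to the others, which came out as 0.887, 1.16 and 1.33 in wild type and 0.814, 0.914 and 0.999 in mutant embryos. A mean of 1 normalized count thus stands for about 3.39 reads in all in wild type and 2.73 in mutant embryos. In RNA of embryos, differences in germ cell number, in RNA per germ cell and in other cells that express a gene cannot be told apart. The paper proposes that a developmental delay may leave early genes higher in mutant embryos, which was not tested here.

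*Kat5* itself, the gene that carries the mutation, had 2218 normalized counts in wild type and 1615 in mutant embryos (ratio 0.728, PPDE 0.999985). This value for the whole gene does not measure *Tip55* alone. The paper reports that the allele leaves expression of the other isoforms unaltered. By RT-qPCR it found *Tip55* at lower levels than the other isoforms it measured. Which isoforms account for the lower *Kat5* count was not tested.

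*Ifitm3* was the 1 germ cell gene that passed the PPDE threshold, and it was higher in mutant embryos. Of all genes, 5.25% were higher past this threshold and 7.11% lower, 12.4% in either direction, so that 1 of 9 genes is near the background. The other 8 genes did not pass. By counting error alone, the interval of the ratio lay above 1 for *Ddx4*, *Ifitm3* and *Dppa3* and below 1 for *Dnd1*. That measure is far less strict, since 31.3% of the 18719 genes with enough reads lay above 1 and 32.5% below it, so that 3 of 9 above 1 is near the background and 1 of 9 below 1 is under it. The ratio was over 1 for 7 of the 9 genes, and for 9522 of the 18719 genes with enough reads. Among the 7, the intervals of *Nanos3*, *Prdm1*, *Prdm14* and *Dazl* held 1. The median log2 ratio of the 9 genes was 0.47, against 0.01 over all genes.

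**Figure D1:**
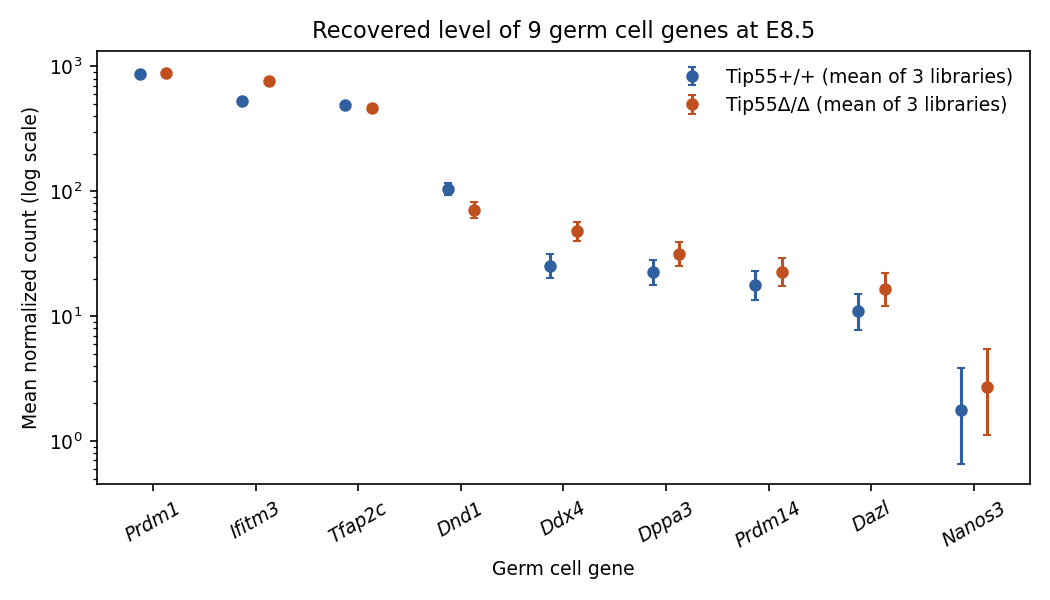
Mean normalized count of the 9 germ cell genes (log scale) in wild type (blue) and mutant embryos (orange), ordered by the wild type mean, with bars for the 95% exact Poisson interval of the reads, which covers counting error only. *Prdm1*, *Ifitm3* and *Tfap2c* lie between 465 and 892 normalized counts, *Dnd1* between 70.7 and 105, and the other 5 genes at 48.0 or lower.

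The genes differed widely in how much RNA was present. To compare genes with each other, the mean was divided by the length of the longest annotated transcript. On this scale *Ifitm3* had the highest level in wild type embryos, 785 normalized counts per kilobase. *Prdm1* (166) and *Tfap2c* (163) followed, and their counting intervals overlapped. *Dnd1* came next with 50.8 and *Dppa3* with 27.3 normalized counts per kilobase. *Ddx4* (8.44) and *Prdm14* (6.94) did not differ beyond counting error, and neither did *Dazl* (3.69) and *Nanos3* (2.43) at the low end. Thus *Prdm1*, *Tfap2c* and *Ifitm3*, named above as also used by somatic and extra-embryonic tissues, stood above the other 6 genes. Whether those 6 are confined to germ cells in these embryos was not tested. By mean count, *Nanos3* was above 13% of all genes and *Ddx4* above 29.5%, while *Prdm1* was above 60.6%.

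Promoters are shown here because they belong to the gene that passed the threshold and to the pair of later germ cell genes. Windows of 300 bases, from 250 bases before to 50 after the annotated start, were taken from RefSeq (GRCm38.p6) and were found for 5 of the 9 genes. Capitals mark CACGTG, an E-box, and GGCGGGAA or its reverse complement TTCCCGCC, letters that resemble the site of E2F factors. Both were searched on both strands.
*Ddx4*, chr13:112652261-112652560, minus strand: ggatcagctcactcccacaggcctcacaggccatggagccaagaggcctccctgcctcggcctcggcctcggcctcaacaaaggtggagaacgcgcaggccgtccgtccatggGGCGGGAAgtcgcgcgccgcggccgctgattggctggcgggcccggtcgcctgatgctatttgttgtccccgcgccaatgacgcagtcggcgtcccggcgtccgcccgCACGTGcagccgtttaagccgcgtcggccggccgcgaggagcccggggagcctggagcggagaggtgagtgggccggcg
*Dazl*, chr17:50293571-50293870, minus strand: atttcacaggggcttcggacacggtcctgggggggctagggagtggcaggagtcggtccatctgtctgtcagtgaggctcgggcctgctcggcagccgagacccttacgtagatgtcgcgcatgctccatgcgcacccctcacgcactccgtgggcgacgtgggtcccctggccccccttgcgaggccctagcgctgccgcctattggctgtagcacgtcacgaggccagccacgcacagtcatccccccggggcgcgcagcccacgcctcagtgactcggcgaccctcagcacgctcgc
*Ifitm3*, chr7:141010695-141010994, minus strand: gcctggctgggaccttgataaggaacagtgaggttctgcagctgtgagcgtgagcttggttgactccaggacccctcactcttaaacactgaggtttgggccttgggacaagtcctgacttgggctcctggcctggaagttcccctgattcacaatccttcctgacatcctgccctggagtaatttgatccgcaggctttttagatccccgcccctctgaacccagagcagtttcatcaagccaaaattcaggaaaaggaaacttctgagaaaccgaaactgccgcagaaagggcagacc
The *Ddx4* window held 1 copy of each motif, which do not overlap, and the windows of *Dazl*, *Ifitm3*, *Nanos3* and *Prdm1* held neither. Of all 32851 windows, 7.15% held the E-box, 2.19% the E2F letters and 0.213% both. The windows of *Ddx4* and *Dazl* were rich in CpG, with 38 and 28 against a median of 7 over all windows, while that of *Ifitm3* had 5 and that of *Nanos3* had 3. A match of letters is a description and was not linked to the RNA levels.

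Of the factors that specify germ cells, none passed the PPDE threshold. *Prdm1* (GRCm38 chr10:44437177-44528501, minus strand) averaged 875 normalized counts in wild type and 892 in mutant embryos. The ratio of 1.02 had an interval from 0.965 to 1.08, and the PPDE was 0.0140. *Tfap2c* (GRCm38 chr2:172549593-172558622, plus strand) had 487 and 465 normalized counts. Its ratio was 0.955 (interval 0.887 to 1.03, PPDE 0.0216). With the GC trend removed, the ratios of *Prdm1* and *Tfap2c* crossed to the other side of 1, at 0.999 and 1.01. Counting error alone thus allows only small differences for this pair, while the spread between libraries is not known. *Prdm14* (GRCm38 chr1:13113457-13127163, minus strand) is more restricted to germ cells. It had 17.8 normalized counts in wild type and 22.7 in mutant embryos, about 60.2 and 61.8 reads in all. The ratio of 1.27 had an interval from 0.879 to 1.85, so that counting error alone did not set it apart from 1. The PPDE was 0.0593.

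The 2 survival factors lay on opposite sides of 1. *Dnd1* (GRCm38 chr18:36763671-36766214, minus strand) shields germ cell mRNAs from microRNAs. Its mean was 105 normalized counts in wild type and 70.7 in mutant embryos, the lowest ratio of the 9 genes at 0.676 (interval 0.564 to 0.808). Its PPDE of 0.946 lies just under the threshold. The gene ends tail to tail with *Wdr55*, a gene for a WD repeat protein, over 140 bases, and per the labels these libraries do not keep the strand. *Wdr55* had 2204 normalized counts in wild type and 2211 in mutant embryos (ratio 1.0, interval 0.970 to 1.04), and 4.33% of the 50-base stretches of the *Dnd1* transcript are also in a *Wdr55* transcript. How reads in this overlap were shared was not tested. *Hars*, a histidyl-tRNA synthetase gene 314 bases away, had a ratio of 1.04, and *Ik*, a splicing gene 6032 bases away, was higher past the threshold (ratio 1.25, PPDE 0.999943).

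*Nanos3* was at the edge of detection. This gene (GRCm38 chr8:84173731-84185217, minus strand) had 1.77 normalized counts in wild type and 2.70 in mutant embryos. These are about 6.01 and 7.37 reads over the 3 libraries of each genotype. The ratio of 1.52 had an interval from 0.449 to 5.42, which spans differences of several fold in both directions. The PPDE was 0.184. At such a level 0 of the 3642 genes with a mean under 5 normalized counts over both genotypes passed the PPDE threshold. *4930432K21Rik*, which ends 1141 bases from *Nanos3* on the other strand, had a ratio of 1.92 (41.1 and 78.9 normalized counts, interval 1.54 to 2.39), yet its PPDE was 7.56e-09.

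**Figure D2:**
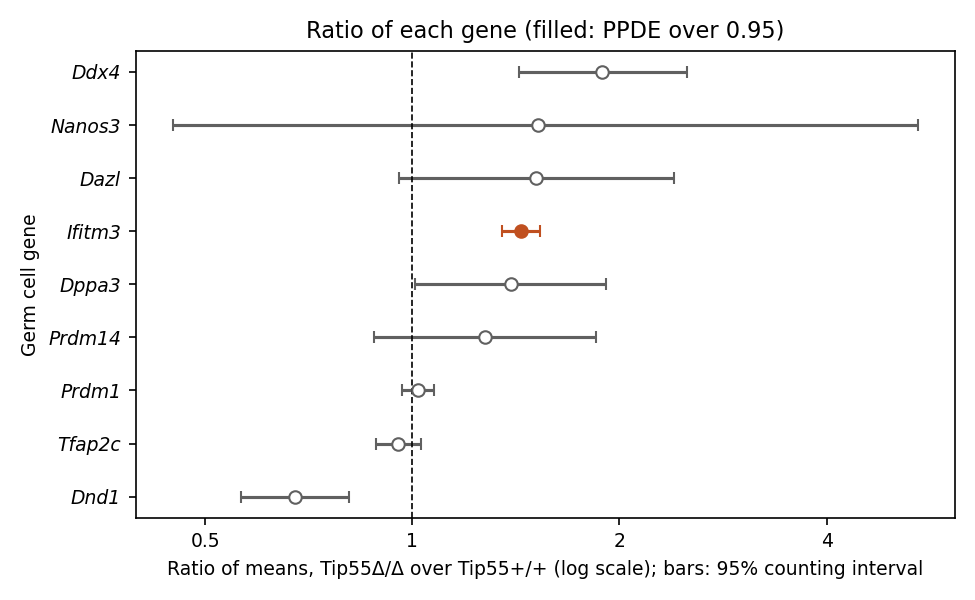
Ratio of the mean normalized counts, mutant over wild type (log scale), for each germ cell gene, with its 95% Clopper-Pearson interval from counting error only. The filled point, *Ifitm3*, passed a PPDE of 0.95, *Dnd1* lies below 1 at 0.676, and the interval of *Nanos3* runs from 0.449 to 5.42.

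*Ddx4* had the highest ratio of the germ cell genes. This RNA helicase gene (GRCm38 chr13:112598333-112652475, minus strand) averaged 25.4 normalized counts in wild type and 48.0 in mutant embryos, or about 86.0 and 131 reads. The counting intervals of the 2 means, 20.3 to 31.4 and 40.1 to 56.9, did not overlap. The ratio was 1.89 (interval 1.43 to 2.51), and with a PPDE of 0.591 it did not pass the threshold. *Dazl* (GRCm38 chr17:50279395-50293636, minus strand) had 11 and 16.6 normalized counts. Its ratio of 1.51 had an interval from 0.957 to 2.40 (PPDE 0.127), so that counting error alone did not set it apart from 1. Of the neighbours of *Ddx4*, *Slc38a9*, an amino acid transporter gene, had a ratio of 1.06 (interval 1.0 to 1.12), and *Il31ra*, an interleukin receptor gene, was at the floor of 3 reads in both genotypes.

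*Dppa3* (GRCm38 chr6:122626410-122630272, plus strand) had 22.7 normalized counts in wild type and 31.6 in mutant embryos. The ratio was 1.39, and its interval, from 1.01 to 1.92, only just lay above 1. The PPDE of 0.149 was far from the threshold. Of the 50-base stretches of its transcript 17.7% are also in transcripts of other genes, most of them in *Dppa3-ps*, a pseudogene, so that its count depends on how RSEM shared such reads. No stretch of *Nanos3*, *Prdm1*, *Prdm14*, *Tfap2c*, *Dazl* or *Ddx4* was found in another gene's transcript.

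Genes with few reads passed the PPDE threshold less often than genes with many. Among the 2274 genes with a mean from 10 to 50 normalized counts, where *Ddx4*, *Dppa3*, *Prdm14* and *Dazl* lie, 3.56% passed the PPDE threshold. The median fold among those that passed, by the posterior ratio (PostFC), was 2.82, and the smallest was 1.73. *Ddx4*, with a PostFC of 1.87, was above that smallest fold, and the other 3 were below it. *Dnd1* lies among 1021 genes with a mean from 50 to 100, of which 11.1% passed, with a smallest fold of 1.57. From 500 to 1000 normalized counts, where *Ifitm3* and *Prdm1* lie, 16.7% passed, and the smallest fold was 1.14. A fold of the size seen in *Ifitm3* was thus under the smallest called fold at the levels of *Ddx4*, *Dppa3*, *Prdm14*, *Dazl* and *Dnd1*. The PPDE also depends on the spread between libraries, which is not known here, so the smallest called fold is not a limit of detection.

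**Figure D3:**
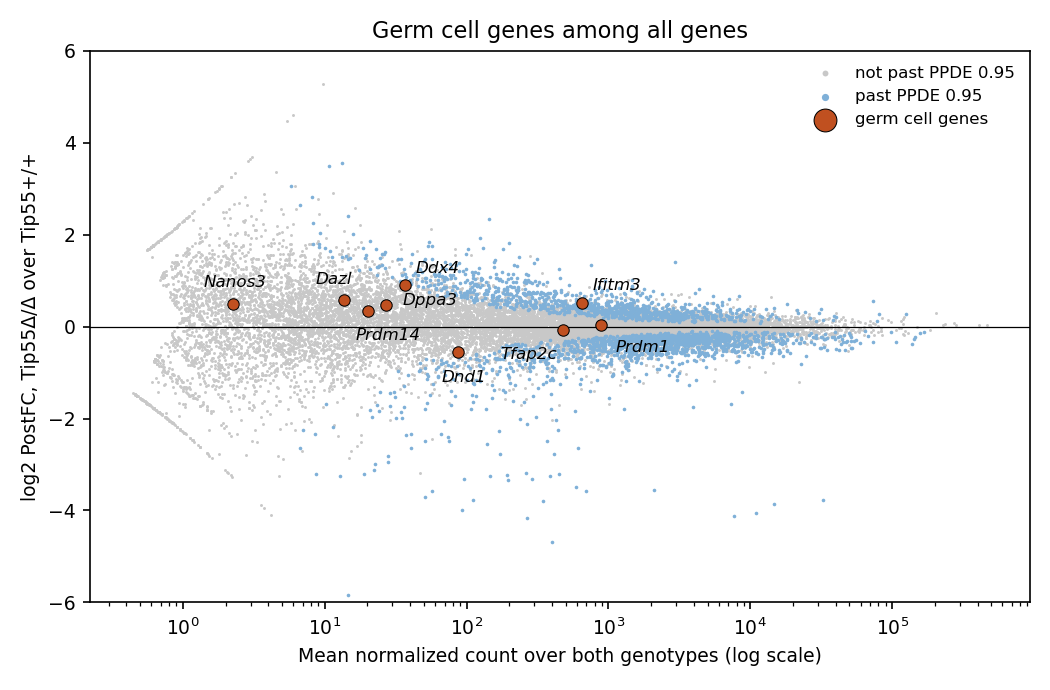
log2 PostFC of mutant over wild type against the mean normalized count over both genotypes (log scale), for the 18719 genes with over 3 reads in either genotype. Blue points passed a PPDE of 0.95, and the orange points are the 9 germ cell genes, of which 5 lie at means under 50, where few genes passed.

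*Ifitm3* (GRCm38 chr7:141009586-141010770, minus strand) rose, as did 2 relatives in the same cluster. Its mean was 532 normalized counts in wild type and 765 in mutant embryos. The ratio was 1.44 (interval 1.35 to 1.53), and the PPDE was 1.0. *Ifitm1* (chr7:140967221-140969825), also known from migrating germ cells, rose to 5076 normalized counts against 3070 in wild type embryos (ratio 1.65, interval 1.61 to 1.70). *Ifitm2* (chr7:140954837-140955987) rose to 10958 against 8436 (ratio 1.3, interval 1.28 to 1.32). All 3 passed the threshold, and none lost its direction with the GC trend removed, where the ratios were 1.5, 1.69 and 1.39. *Ifitm5*, a bone gene of the same cluster, had a ratio of 0.978 (32.9 and 32.1 normalized counts, interval 0.731 to 1.31). The genes are similar in sequence. Of their 50-base stretches, 10% of *Ifitm3*, 6.36% of *Ifitm1* and 48.5% of *Ifitm2* are also in transcripts of other genes. *Gm7676* shared the most with *Ifitm3* (29 stretches) and *Gm45717* with *Ifitm2* (219), and neither is one of these relatives. The shared stretches of *Ifitm1* were in transcripts of *Gm7676* and of *Ifitm3* itself. The count of each gene is thus uncertain, since it depends on how RSEM shared such reads.

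Of 10 relatives of the germ cell genes, *Ifitm1* and *Ifitm2* were thus higher past the threshold and 1 was lower. The lower one was *Prdm16*, a factor of the PRDM family known from brown fat and craniofacial development, which fell from 167 to 96.3 normalized counts (ratio 0.576, interval 0.496 to 0.668). The AP-2 relatives of *Tfap2c* did not pass. *Tfap2b* had a ratio of 0.692 with a PPDE of 0.263, and *Tfap2a* one of 0.897 with a PPDE of 0.341.

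The signals that induce germ cells, 11 genes of the BMP and WNT pathways with *T* (brachyury), had a median log2 ratio of 0.11, with 9 ratios over 1 and 0 genes past the PPDE threshold. *T* was highest, with 2350 and 3794 normalized counts (ratio 1.61, PPDE 0.674), and *Smad1*, a BMP effector, was lowest at 0.979. *Bmp4*, the ligand that induces germ cells, had 1556 and 1944 normalized counts (ratio 1.25, PPDE 0.192). Among 12 genes of migration and survival, 2 were higher past the threshold and 1 lower, with a median of 0.02. *Cxcr4*, the receptor that guides germ cells to the gonad, rose 1.66-fold, from 1204 to 1996 normalized counts (interval 1.59 to 1.73), and *Ifitm1* was the other. *Cxcl12*, the ligand of CXCR4, had a ratio of 1.03 (PPDE 0.00684). *Bax*, which drives the death of stray germ cells, was lower at a ratio of 0.856 (PPDE 0.997183), but was at 1.1 with the GC trend removed. *Elavl2*, which codes for an RNA-binding protein, had the lowest ratio, 0.798, with a PPDE of 0.176. *Kit*, the receptor that germ cells need to survive, had a ratio of 0.896, and its ligand *Kitl* had one of 1.49. Neither passed the threshold (PPDE 0.0458 and 0.103), and all of these genes are also expressed in somatic cells.

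**Figure D4:**
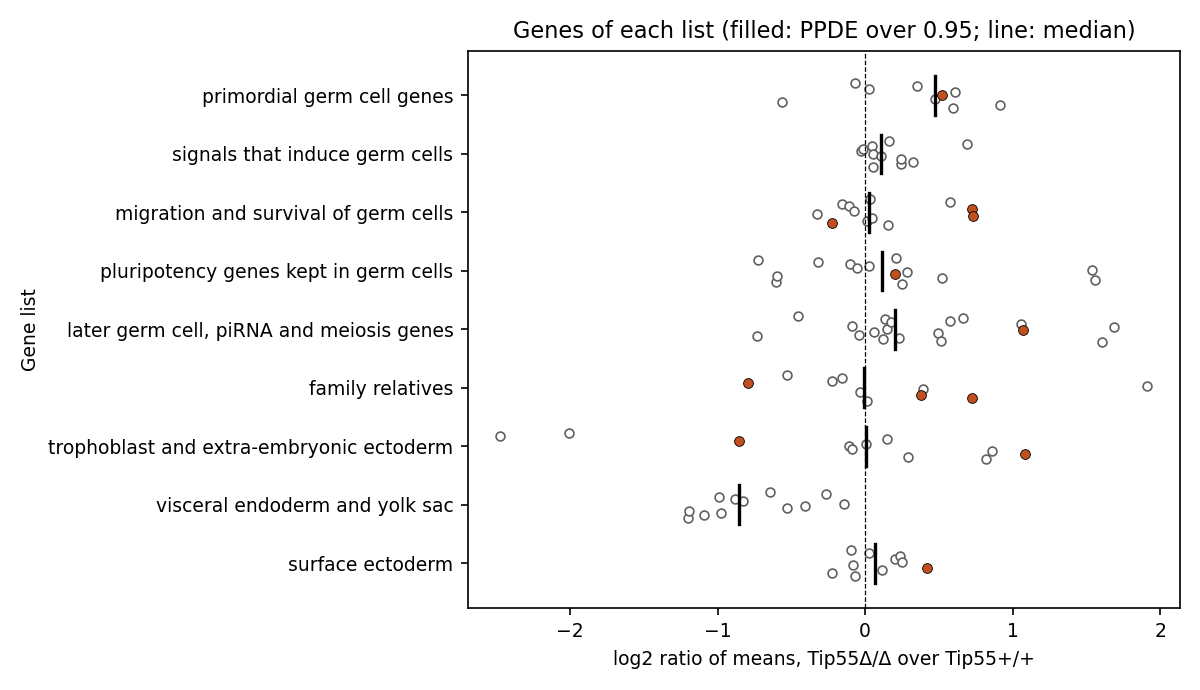
log2 ratio of means, mutant over wild type, for each gene of 9 lists with over 3 reads in either genotype. Filled points passed a PPDE of 0.95 and lines mark medians, −0.85 for visceral endoderm and 0.47 for the germ cell genes. The lists of chromatin genes, germline repressors and decidual genes are not drawn, and the decidual list has a higher median, 2.28. Most decidual genes had a wild type mean under 10 normalized counts.

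Of 14 pluripotency genes that germ cells retain, *Lin28a* passed the threshold. This RNA-binding protein gene rose from 37201 to 42889 normalized counts (ratio 1.15, interval 1.14 to 1.16). *Pou5f1* (OCT4), the core pluripotency factor of germ cells, had the highest ratio among those with a mean of at least 10. It had 144 normalized counts in wild type and 418 in mutant embryos (ratio 2.91, interval 2.61 to 3.24), but a PPDE of 0.132. *Nanog* had 77.1 and 94.1 (ratio 1.22, interval 1.02 to 1.45, PPDE 0.0677). *Utf1*, a chromatin factor of stem cells, was lowest at 0.605 (PPDE 0.404), and *Esrrb*, an orphan receptor, had a ratio of 1.44 with a PPDE of 0.880. The list had 8 ratios over 1 and 6 under 1, with a median of 0.12.

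The 20 genes of later germ cells, piRNA and meiosis had a median log2 ratio of 0.20. They were measured at 0.00 to 147 normalized counts in wild type embryos, and 2 of them, *Tex101* and *Gtsf1*, were at the floor in both genotypes. Of the other 18, 14 had a ratio over 1 and 4 under 1. *Rnf17*, a Tudor domain gene of the germ granules, passed the threshold and rose from 147 to 308 normalized counts (ratio 2.10, interval 1.87 to 2.35). *Stra8*, which starts meiosis, had the highest ratio, 3.22 (interval 1.58 to 7.04), from 3.37 and 10.9 normalized counts, with a PPDE of 0.472. *Tex19.1*, a gene that guards against transposons, had the lowest ratio, 0.728, among those with a mean of at least 10. The piRNA genes *Tdrd1* (ratio 1.13) and *Mov10l1* (ratio 0.970) had intervals that hold 1.

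Markers of other tissues that use *Prdm1* or *Tfap2c* were read in the same libraries. All 12 genes of visceral endoderm and yolk sac, where *Prdm1* is also expressed, had a ratio under 1, with a median log2 of −0.85, and their summed level was 183526 in wild type and 113108 normalized counts in mutant embryos. They ran from *Afp* at 0.435 to *Foxa2* at 0.905, and 0 of them passed the PPDE threshold. The 11 listed genes of trophoblast and extra-embryonic ectoderm, where *Tfap2c* is expressed, had a median of 0.00 and a summed level of 12187 and 12066. *Hand1* (6142 and 6156 normalized counts) and *Cdx2* (2687 and 3292) made up most of this sum, which says little about the other listed genes. The interval of the ratio lay above 1 for 5 of the 11 genes and below 1 for 4. Among the 11, *Elf5* was higher (45 and 95.5 normalized counts, ratio 2.12) and *Krt7* lower (ratio 0.552) past the threshold. *Prl2c2* was lowest at 0.180, and no marker was at 0. The 10 surface ectoderm genes summed to 42953 and 47953, with *Grhl3* higher past the threshold (ratio 1.34) and *Epcam* lowest at 0.854. Most of that sum came from *Krt8* (17921 and 21092 normalized counts) and *Krt18* (12280 and 14597). Of 10 decidual and uterine immune genes, *Gzmf* (ratio 15.1) and *Gzmg* (ratio 15.2) were higher and *Prl8a2* lower (ratio 0.0548) past the threshold. In wild type embryos *Gzmf* and *Gzmg* had only 1.65 and 1.31 normalized counts. The intervals of their ratios were wide, from 6.43 to 44.5 and from 5.85 to 53.0. *Gzmd* was at 0 in wild type and at 12 normalized counts in mutant embryos, and did not pass (PPDE 1.25e-06). Of these 10 genes, 9 had a ratio over 1, 7 had an interval above 1 and 1 below it, and the median log2 ratio was 2.28. The wild type mean was under 10 normalized counts for 7 of the 10, so most of these ratios rest on few reads. The 10 genes summed to 1937 in wild type and 1638 normalized counts in mutant embryos. *Cryab* made up 1326 and 1371 of it, and *Prl8a2* 503 and 27.6. The part of these tissues in the levels of *Prdm1*, *Tfap2c* and *Ifitm3* was not tested.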

How the data were processed

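For 6 libraries of E8.5 embryos, the authors aligned reads to the mm10 genome, estimated expression by RSEM and tested the mutant against the wild type in EBSeq. Versions, annotation and filters are not given in the sources used here. The deposited table gives, for 20280 genes, PPEE and PPDE as a fraction from 0 to 1, and PostFC and RealFC as a linear ratio. These columns are the authors' own comparison and the sole source of values, so their calls are quoted as theirs. No fit across libraries was made. RealFC adds 0.01 to both means and PostFC adds a constant, found to be 0.514 from 259 genes at 0 in *Tip55*+/+ embryos. Both means were solved from the pair. For 8 genes rounding moved a mean by over 5%, and they were left out. Recovered means sum to 49138100 and 47211500 normalized counts per library, and single library totals are not known.

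Low means fall on steps worth 1 read in 1 library, shared by 109 to 178 genes each, which gave the size factors. They could not be tied to replicate numbers. No whole-read combination gave the means of *Nanos3*, *Prdm14* or *Dazl*, or the mutant mean of *Dppa3*, so reads per library were not recovered. Summed reads assume equal levels across libraries. A gene at 3 reads or fewer was taken as at the floor, and 1553 genes were at it in both genotypes. Intervals and floors cover counting error only.

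Annotation was GENCODE vM21 (GRCm38), matched by symbol for 19290 genes. The GC trend is a lowess smooth (span 0.3) of log2 PostFC against GC content of the longest transcript, taken over the 11883 genes whose mean reached 100. Members and lists were chosen with earlier results of these data known. Genes named are all 9, *Kat5*, overlapping genes and neighbours within 10 kb that have a row in the table (6 others, *Mir181c*, *Mir181d*, *Gm26887*, *Gm3226*, *Gm26168* and *Ifitm6*, had none under those symbols), and, from each list, genes past the threshold and the highest and lowest ratio at a mean of at least 10. *Bmp4*, *Cxcl12*, *Kit*, *Kitl*, *Nanog*, *Esrrb*, *Tdrd1*, *Mov10l1*, *Ifitm5*, *Tfap2a*, *Tfap2b*, *Tex101* and *Gtsf1* were added for their roles after their values were seen. *Hand1*, *Cdx2*, *Krt8*, *Krt18* and *Cryab*, which make up much of a sum, were also added after their values were seen. So were *Gm7676* and *Gm45717*, which share stretches. *Tpbpa*, a trophoblast marker, had no row under that symbol. The recovery was tested on simulated data. Intervals came from scipy 1.17.1, the smooth from statsmodels 0.14.6 and plots from matplotlib 3.10.9, run under Python 3.11.15 with pandas 2.3.3 and numpy 2.4.6.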

Additional observations from a re-analysis of the deposited data

How the results depend on the processing

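No paired analysis was possible because the table holds no value per library, and for the same reason no replicate could be left out. With a PPDE threshold of 0.9 in place of 0.95, 1 germ cell gene was lower in *Tip55*Δ/Δ embryos, *Dnd1*, in place of 0. With counts of 1 library in place of the sum, the interval of *Dppa3* ran from 0.787 to 2.47 and held 1, and those of *Ddx4*, *Ifitm3* and *Dnd1* did not. The median log2 ratio of the 9 genes lay between 0.41 and 0.47 under the alternatives tried, which were the RealFC and PostFC columns, centring on all genes, removal of the GC trend, and *Nanos3* left out for its low mean or, chosen after seeing the data, for under 10 reads. With the GC trend removed, the ratios of *Prdm1* and *Tfap2c*, neither called, moved to 0.999 and 1.01, the other side of 1, and that of *Dazl* to 1.33. Taking normalized counts as reads, also chosen after seeing the data, left 3 intervals above and 1 below 1. Depth limits *Nanos3* most, then *Dazl* and *Prdm14*.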

Other observations

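The chromatin and DNA methylation enzymes that act in germ cells were abundant in these embryos, and 2 of 12 were lower past the PPDE threshold, with a median log2 ratio of −0.05. *Dnmt3a*, a de novo DNA methyltransferase, fell from 6768 to 4597 normalized counts (ratio 0.679, interval 0.665 to 0.694). *Ehmt2*, which places methyl groups on histone H3, had a ratio of 0.792 and was at 0.954 with the GC trend removed. *Dnmt3b* had the highest ratio, 1.18, with a PPDE of 0.466. Of 8 repressors that keep germline genes silent in somatic cells (*Mga*, *E2f6*, *Pcgf6* and partners), 0 passed the threshold by EBSeq, the 1 tool whose calls are given, and their ratios ran from 0.956 for *Max* to 1.21 for *Mga* (PPDE 0.0864).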
